A study of Mus musculus with 6 samples.

Results

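The genes of oxidative phosphorylation were followed in bulk RNA-Seq of donor CD8+ T cells taken from bone marrow (BM) after transplantation, with the subunits that the mitochondrial genome encodes set against those that the nucleus encodes. Members were chosen by symbol alone. Every listed symbol beginning with mt-, Nduf, Uqcr, Atp5 or Cox4 to Cox8, and the 4 subunits of succinate dehydrogenase, was taken, and this gave 101 of the 14051 genes in the table. They were 13 mitochondrially encoded mRNAs, 80 nuclear-encoded subunits, 6 assembly factors of complex I, the associated factor Cox7a2l and Cox5b-ps, a pseudogene by its symbol. Mitochondrial rRNAs and tRNAs were not analysed here.

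GC-treated libraries came from B6D2F1 mice transplanted with CD3+ T cells that had been purified from B6.CD45.1+ donors. These recipients were injected with dexamethasone, a synthetic glucocorticoid (GC), at 5 mg/kg/day i.p. on days -1 to 5. Vehicle-treated libraries came from recipients of the same transplant given methyl β-cyclodextrin in PBS. Each group had 3 libraries. Cells were collected on day 5, after an i.v. anti-CD45 PE antibody that stains cells within vessels, and the sort took PE+ CD45.1+CD8+ T cells out of BM that was pooled, 2 to 3 mice to a biological group. It is not stated if every library had a separate pool, so p-values measure only the spread between these libraries.

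Oxidative phosphorylation passes electrons from NADH through complexes I, III and IV, and from succinate through complex II, to oxygen. Complexes I, III and IV pump protons across the inner mitochondrial membrane, and complex V, the ATP synthase, uses the resulting gradient to make ATP. Complexes I, III, IV and V are built from subunits of both genomes, while complex II is wholly nuclear encoded. The mitochondrial mRNAs are cut from long transcripts that cover nearly the whole of each strand of the circular genome. Activated T cells draw on this pathway for growth and for memory.

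The mitochondrial genes lie so close together that some share bases, and reads from such stretches cannot be given to 1 gene. The longest shared run, 43 bases in capitals below, opens with the start codon of mt-Atp6 and closes with the stop codon of mt-Atp8, both of which encode subunits of the membrane part of ATP synthase (chrM:7912-7984, GRCm39, plus strand). The second run, 14 bases in capitals, holds the stop codons of mt-Nd5 and of mt-Nd6, which are read from opposite strands (chrM:13537-13580, GRCm39, plus strand). They are shown because the library kit does not mark strand.
mt-Atp8 and mt-Atp6: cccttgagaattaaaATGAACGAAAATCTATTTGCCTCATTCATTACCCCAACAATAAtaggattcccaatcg
mt-Nd5 and mt-Nd6: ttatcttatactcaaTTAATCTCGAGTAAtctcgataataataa

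A nuclear copy of mitochondrial DNA adds a further limit. In GRCm39, chr1:24650616-24655269 was 99.94% identical to 4654 bases of the mitochondrial genome. It held all of mt-Co2, mt-Atp8, mt-Atp6, mt-Co3, mt-Nd3 and mt-Nd4l, 63.6% of mt-Nd4 and 31.3% of mt-Co1, and no base of mt-Nd1, mt-Nd2, mt-Nd5, mt-Nd6 or mt-Cytb. How reads that match both places were counted is not stated.

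Nuclear members were described at their promoters as well. RefSeq promoter windows (GRCm38.p6, 250 bases before and 50 after the gene start) were matched for 72 nuclear members. The palindrome bound by NRF1, a nuclear regulator of respiratory genes, was searched on both strands as GCGCA followed directly by its reverse complement. It lay in 6 of the 72 (8.3%), in 1.47% of the windows of 17492 coding genes and in 1.07% of those of all 27025 genes. The 6 were Ndufa11, Ndufaf4, Ndufaf5, Uqcrc1, Cox6a1 and Atp5k. The YY1 motif AAGATGGCG lay in 7 of the 72 (9.7%), against 2.14% of coding and 1.64% of all windows. Of these 7, 5 were genes of complex I, but 38 of the 72 members belonged to complex I, assembly factors included. The ETS motif CCGGAAGT lay in 5 (6.9%), against 5.69% of coding and 4.31% of all windows. No window held more than 1 of these motifs among the members. A match describes letters in a window and is not evidence of binding. The 2 stretches below, both on the minus strand of chromosome 5, show the palindrome in capitals 162 bases before the start of Cox6a1 (chr5:115349071-115349160) and 50 bases before that of Atp5k (chr5:108434400-108434489).
Cox6a1: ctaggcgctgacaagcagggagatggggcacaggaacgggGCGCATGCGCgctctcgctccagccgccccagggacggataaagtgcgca
Atp5k: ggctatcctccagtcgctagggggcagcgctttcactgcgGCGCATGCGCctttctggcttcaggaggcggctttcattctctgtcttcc

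The GC-treated libraries held 67887570 to 76888118 reads on listed genes and the vehicle-treated libraries 60949593 to 64801008. Values are normalized counts, in which the authors divided each library's reads by a size factor, and fold changes are limma estimates on log2(normalized count + 1), GC-treated minus vehicle-treated. Genes were kept where 3 or more libraries reached a value of 10, which left 11649, and limma called 0 of them (0.0%) at a Benjamini-Hochberg adjusted p under 0.05. At an unadjusted p under 0.05, 247 were higher in GC-treated cells (2.12%) and 591 lower (5.07%). Over all genes edgeR called 0 and DESeq2 called 2 (0.0143%), neither a member. GC-treated 1 stood apart, since without it limma called 45 genes (0.386%). The 7 CD8 T cell markers took 0.537% to 0.657% of the reads in GC-treated libraries and 0.540% to 0.578% in vehicle-treated libraries.

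All 13 mitochondrially encoded mRNAs had lower average levels in GC-treated than in vehicle-treated cells, but the groups overlapped for each of them. The median log2 fold change was -0.64, beside -0.01 over all genes tested. Nuclear-encoded subunits went slightly the other way: 76 of the 78 tested had a positive log2 fold change, with a median of 0.14. No member of either kind passed the test over all genes (lowest limma adjusted p = 0.62). At an unadjusted p under 0.05, 6 of the 13 mitochondrial mRNAs were lower, where 5.07% of all genes were, and 4 of the 78 nuclear subunits were higher, where 2.12% of all genes were. No member passed that threshold in the opposite direction. With edgeR 0 of the 13 mitochondrial mRNAs were lower at that threshold (3.79% of all genes) and 6 of the 78 nuclear subunits higher (2.28%). With DESeq2 these counts were 0 (4.63% of all genes) and 8 (2.41%). Without limma's trend, an alternative chosen after seeing the data, they were 0 (2.82%) and 0 (1.98%). In bulk samples, fewer cells of a type and less RNA per cell cannot be told apart.

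Together the mitochondrially encoded mRNAs took 0.902%, 0.400% and 0.615% of the reads of GC-treated 1, 2 and 3, against 0.910%, 1.13% and 0.757% in vehicle-treated 1, 2 and 3. The share in GC-treated 2 had a Wilson 95% interval of 0.398% to 0.401%, which covers counting error only. Counting error was thus far smaller than the distance between libraries of the same group. GC-treated 2 was the lowest of the 6 libraries and vehicle-treated 2 the highest for all 13 mRNAs. GC-treated 3 lay below all vehicle-treated libraries for 10 of the 13. GC-treated 1 lay below all vehicle-treated libraries for none of the 13, and its levels were 81.0% to 107% of the vehicle-treated means.

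**Figure D1:**
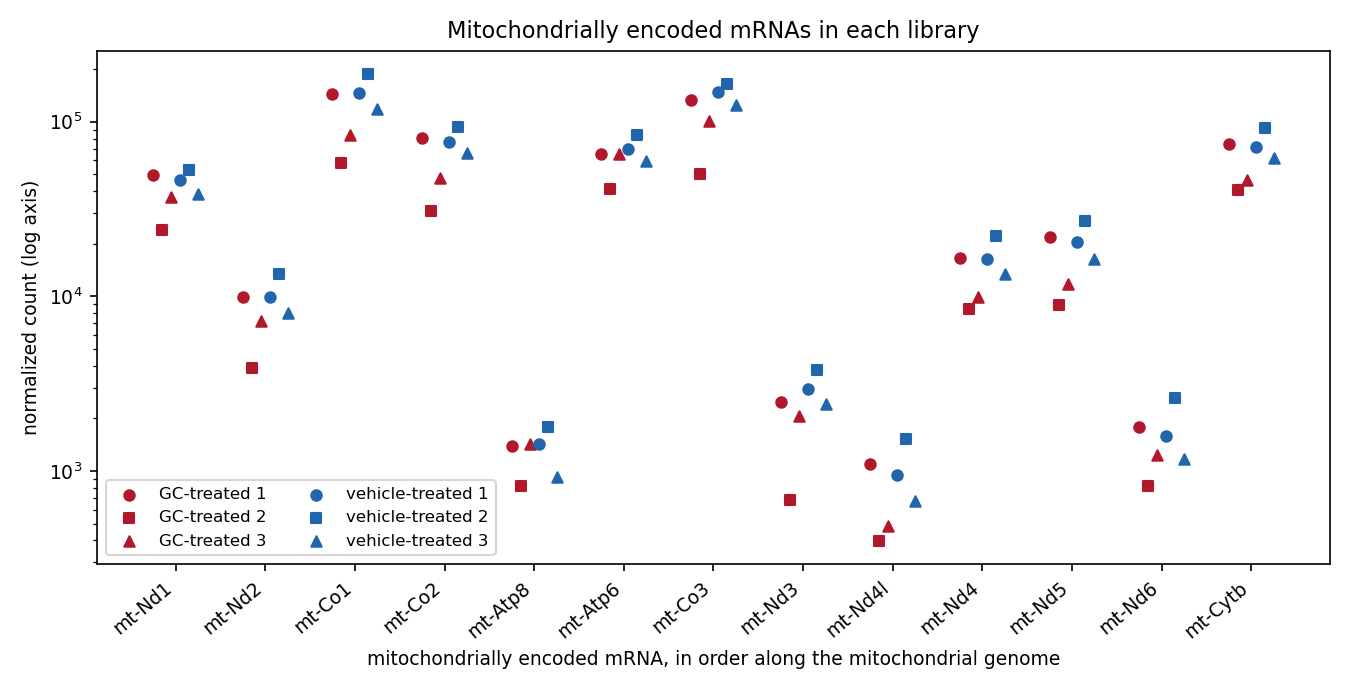
Normalized counts (log axis) of the 13 mitochondrially encoded mRNAs, in order along the mitochondrial genome, in 3 GC-treated (red, left) and 3 vehicle-treated (blue, right) libraries, where marker shape gives the replicate number. For every mRNA GC-treated 2 is lowest and vehicle-treated 2 highest, while GC-treated 1 lies among the vehicle-treated libraries.

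Complex IV, cytochrome c oxidase, has its catalytic core encoded in the mitochondrion, and its mRNAs had the highest mean normalized counts of the 13. The level of mt-Co1, which carries the oxygen-reducing site, was 144100, 58240 and 84220 in GC-treated 1, 2 and 3, against 145800, 187100 and 118700 in vehicle-treated 1, 2 and 3. For mt-Co2, which takes electrons from cytochrome c, the levels were 80870, 30810 and 47320 in GC-treated and 76210, 93210 and 65970 in vehicle-treated libraries. The level of mt-Co3, the third core subunit, was 132200, 50380 and 100900 in GC-treated and 147200, 163600 and 124400 in vehicle-treated libraries. Thus GC-treated 2 and 3 lay below every vehicle-treated library for each of these 3 mRNAs and GC-treated 1 did not. Their log2 fold changes were -0.73 ± 0.29, -0.66 ± 0.29 and -0.72 ± 0.29 (SE), each with a limma adjusted p of 0.62.

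Complex III has 1 mitochondrial subunit, cytochrome b, which holds both of its quinone sites. Its mRNA, mt-Cytb, was at 74470, 40420 and 46470 in GC-treated and at 71360, 91940 and 61910 in vehicle-treated libraries. The log2 fold change was -0.51 ± 0.22 (SE; limma adjusted p = 0.62). Again GC-treated 2 and 3 lay below, and GC-treated 1 among, the vehicle-treated libraries.

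Complex I receives 7 mitochondrial subunits, all part of its proton-pumping membrane arm. Their log2 fold changes had a median of -0.64 and ran from -0.99 for mt-Nd3 to -0.37 for mt-Nd1. The level of mt-Nd3 was 2474, 678.7 and 2055 in GC-treated and 2947, 3788 and 2422 in vehicle-treated libraries, with a log2 fold change of -0.99 ± 0.42 (SE; limma adjusted p = 0.62). In GC-treated 2 it stood at 22.2% of the vehicle-treated mean, the lowest such percentage among the 13 mRNAs. The mRNA of mt-Nd4, a proton-channel subunit, was at 16530, 8444 and 9868 in GC-treated and at 16410, 22120 and 13330 in vehicle-treated libraries (log2 fold change -0.60 ± 0.25, SE; limma adjusted p = 0.62). For mt-Nd5, the subunit farthest along the membrane arm, the levels were 21820, 8935 and 11800 in GC-treated and 20340, 27130 and 16270 in vehicle-treated libraries. For these 3 mRNAs too GC-treated 2 and 3 lay below every vehicle-treated library and GC-treated 1 did not, although for mt-Nd3 it was only just above vehicle-treated 3.

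The other 4 complex I mRNAs had negative log2 fold changes as well. The level of mt-Nd1, a subunit at the joint of the 2 arms, was 49210, 24020 and 37040 in GC-treated and 46280, 52890 and 38330 in vehicle-treated libraries. For mt-Nd2 it was 9863, 3907 and 7251 in GC-treated and 9846, 13410 and 8041 in vehicle-treated libraries. The small mt-Nd4l was at 1101, 399.9 and 484.4 in GC-treated and at 953.2, 1526 and 675 in vehicle-treated libraries. For mt-Nd6, the only 1 of the 13 read from the opposite strand, the values were 1791, 816.7 and 1231 in GC-treated and 1589, 2632 and 1177 in vehicle-treated libraries, and reads from the transcript opposite to it cannot be told apart from its own. Only for mt-Nd6 among the 7 was GC-treated 3 within the range of the vehicle-treated libraries.

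Complex V showed the smallest differences among the mitochondrial mRNAs, with log2 fold changes of -0.34 ± 0.19 for mt-Atp6 (SE; limma adjusted p = 0.62) and -0.18 ± 0.28 for mt-Atp8 (adjusted p = 0.82). The level of mt-Atp6 was 64830, 41300 and 65060 in GC-treated and 70000, 84040 and 59800 in vehicle-treated libraries. For mt-Atp8 it was 1384, 819.6 and 1425 in GC-treated and 1422, 1784 and 918.1 in vehicle-treated libraries. Here GC-treated 3 lay within the vehicle-treated range, unlike its place for complexes III and IV. Whether the fold changes differed between complexes was not tested.

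The make-up of the mitochondrial mRNA pool also differed between libraries. Of all mitochondrial mRNA reads, mt-Atp6 took 10.8%, 15.3% and 15.7% in GC-treated 1, 2 and 3, against 11.5%, 11.3% and 11.7% in vehicle-treated 1, 2 and 3. For mt-Co1 the part was 24.0%, 21.6% and 20.3% in GC-treated and 23.9%, 25.1% and 23.2% in vehicle-treated libraries. For mt-Nd1 it was 8.19%, 8.92% and 8.92% in GC-treated and 7.58%, 7.10% and 7.49% in vehicle-treated libraries. Hence all 3 GC-treated libraries had a larger share of mt-Nd1 than any vehicle-treated library, whereas GC-treated 2 and 3 alone lay above all vehicle-treated libraries for mt-Atp6 and below them for mt-Co1. These 3 mRNAs were chosen after their values were seen, and among the 13 only mt-Nd1 had shares that did not overlap between the groups. The shares are a description, with no test.

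Per length the order of the 13 mRNAs was steep. Over all 6 libraries mt-Co3 averaged 2280 ± 777 RPKM, reads scaled by transcript length and library total (SD, n = 6), followed by mt-Co2 at 1440 ± 515, mt-Atp6 at 1410 ± 317 and mt-Co1 at 1190 ± 460. After them came mt-Cytb at 842 ± 257 and mt-Nd1 at 645 ± 168. Apart from mt-Co3, each of these lay within 1 SD of the next. That SD includes differences between libraries that the mRNAs shared, so it does not measure how firm the order was within a library. In every library mt-Co1 was above mt-Cytb, and mt-Cytb above mt-Nd1. A wide gap followed, to mt-Nd4 at 157 ± 55.9, mt-Nd5 at 145 ± 56.5, mt-Nd2 at 126 ± 46.9, mt-Nd3 at 103 ± 45.0 and mt-Atp8 at 94.7 ± 27.1, again within 1 SD of their neighbours. In GC-treated 2 and 3 the order was not the same, since mt-Atp6 was at 900 and 1420 RPKM there and mt-Co2 at 669 and 1030. The lowest per length on average were mt-Nd6 at 44.4 ± 18.8 and mt-Nd4l at 43.2 ± 21.8. The shortest of the 13, mt-Atp8 at 204 bases and mt-Nd4l at 297, share bases with mt-Atp6 and mt-Nd4. Their values per length depend on how reads were given to 1 gene or the other, so their gaps to these neighbours are uncertain.

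Mitochondrial mRNAs inside and outside the nuclear copy on chromosome 1 had negative values alike. The median log2 fold change was -0.69 for the 6 mRNAs that lie wholly within it and -0.51 for the 5 that have no base in it, all 5 negative. Those 5 were mt-Nd1 (-0.37), mt-Nd2 (-0.64), mt-Nd5 (-0.65), mt-Nd6 (-0.48) and mt-Cytb (-0.51).

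Within a complex, the reads of its mitochondrial mRNAs were then divided by those of its nuclear subunits, a ratio that does not depend on the scaling of libraries. For complex IV the ratio was 2.66, 1.08 and 1.45 in GC-treated 1, 2 and 3, against 2.71, 3.36 and 2.45 in vehicle-treated 1, 2 and 3. For complex I it was 0.425, 0.190 and 0.233 in GC-treated and 0.411, 0.532 and 0.346 in vehicle-treated libraries. Complex III gave 0.707, 0.374 and 0.356 in GC-treated and 0.692, 0.895 and 0.604 in vehicle-treated libraries. In these 3 complexes GC-treated 2 and 3 lay below all vehicle-treated libraries and GC-treated 1 did not, so the groups overlapped. Complex V gave 0.144, 0.0952 and 0.127 in GC-treated and 0.162, 0.197 and 0.134 in vehicle-treated libraries, with the same overlap. With all 13 mitochondrial mRNAs over all 80 nuclear subunits, those of complex II included, the ratio averaged 0.395 ± 0.166 in GC-treated and 0.622 ± 0.121 in vehicle-treated libraries (SD, n = 3 each).

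**Figure D2:**
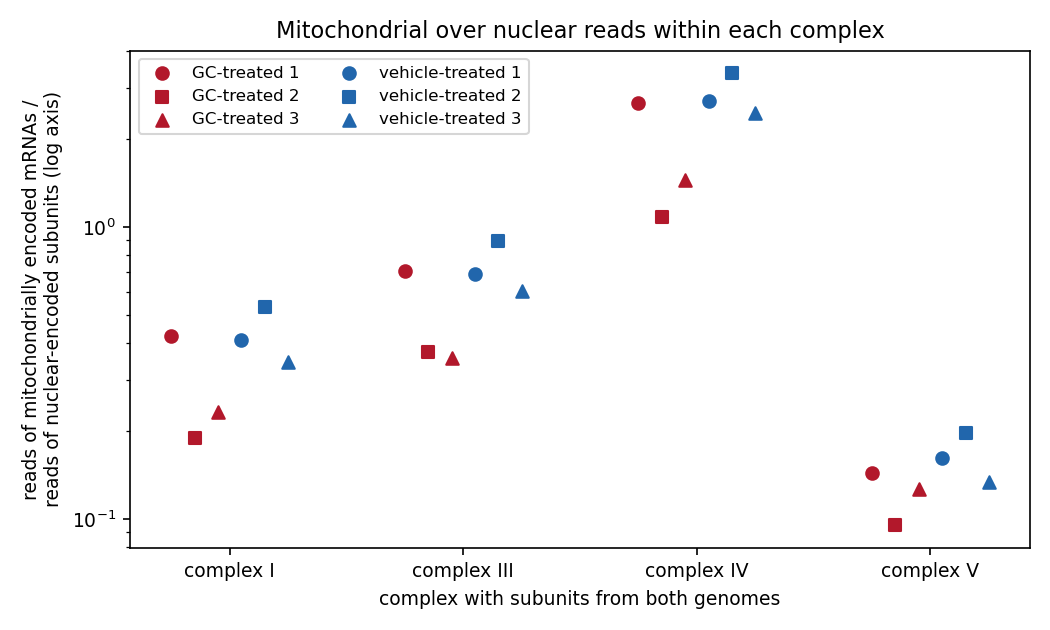
Reads of the mitochondrially encoded mRNAs of a complex divided by reads of its nuclear-encoded subunits (log axis), for the 4 complexes with subunits from both genomes, in GC-treated (red, left) and vehicle-treated (blue, right) libraries. In complex IV the ratio is 1.08 and 1.45 in GC-treated 2 and 3 and 2.66 in GC-treated 1, beside 2.45 to 3.36 in the vehicle-treated libraries.

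Nuclear-encoded subunits were dominated by another library. GC-treated 3 was the highest of the 6 libraries for 74 of the 78 tested. The median deviation of these subunits from their mean over 6 libraries was -0.02, -0.02 and 0.26 on the log2 scale in GC-treated 1, 2 and 3, against -0.03, -0.07 and -0.10 in vehicle-treated 1, 2 and 3. The mitochondrial mRNAs had median deviations of 0.27, -0.89 and -0.23 in GC-treated 1, 2 and 3, against 0.27, 0.69 and -0.03 in vehicle-treated 1, 2 and 3. So the library with the lowest mitochondrial mRNAs, GC-treated 2, was near the middle for the nuclear subunits. Across the 6 libraries the median pairwise Pearson correlation of log2 levels was 0.94 among the mitochondrial mRNAs, 0.83 among the nuclear subunits, and -0.25 between the 2 sets. These correlations describe genes that share libraries and depth.

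**Figure D3:**
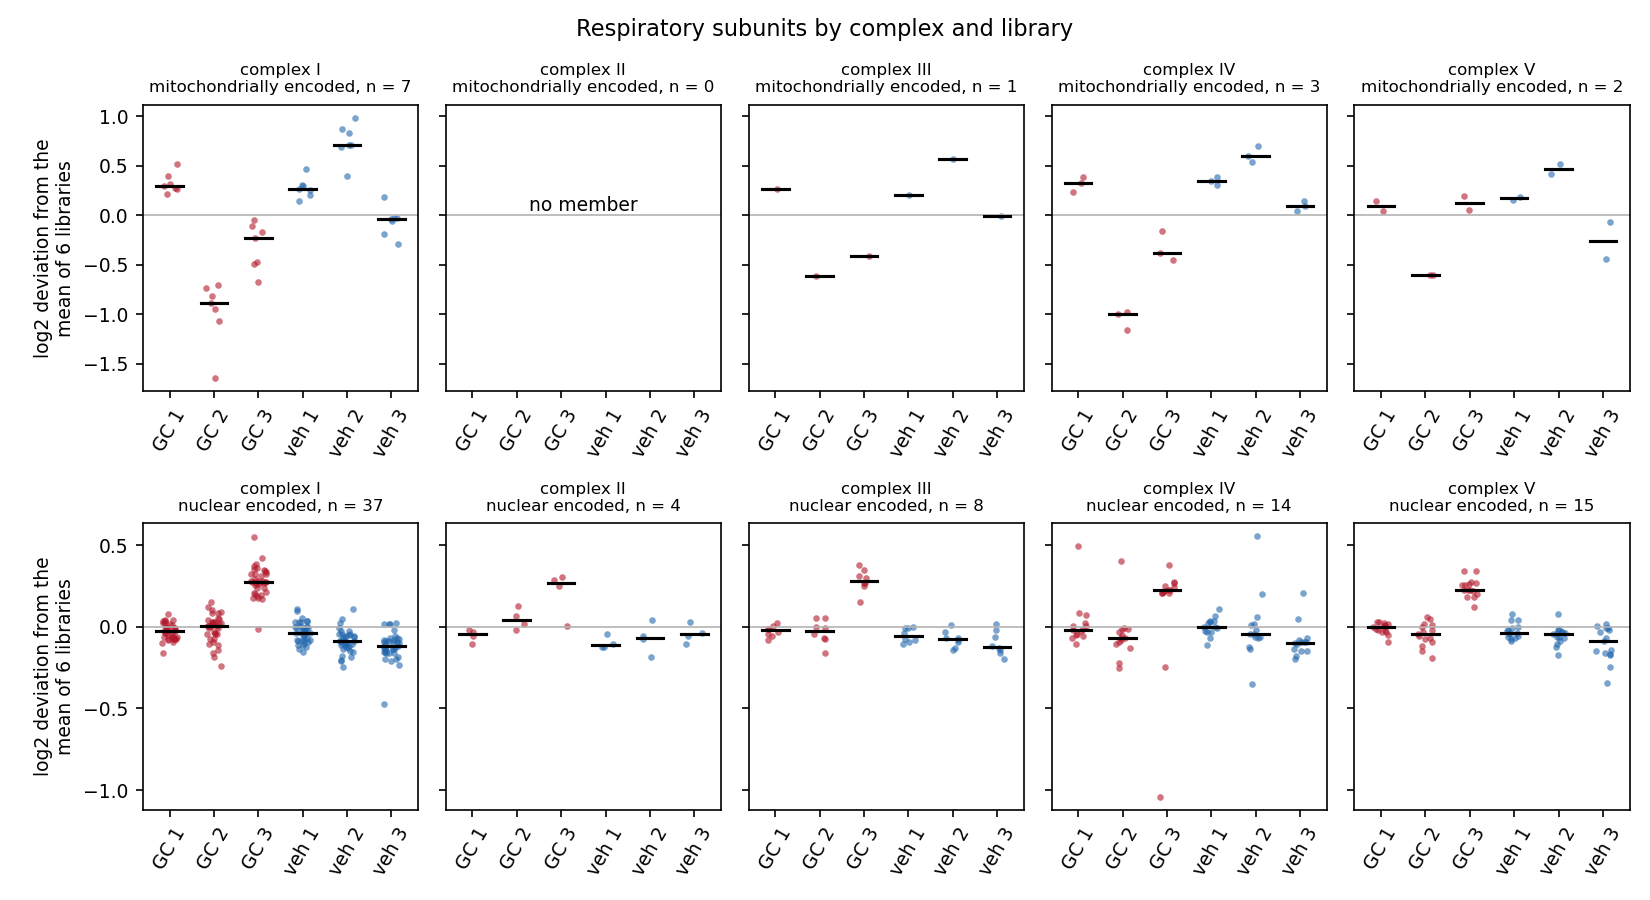
Log2 deviation of each tested subunit (points) from its own mean over 6 libraries, with the median as a black bar, for mitochondrially encoded (top) and nuclear-encoded (bottom) subunits of complexes I to V in GC-treated (red, left) and vehicle-treated (blue, right) libraries. The top panels dip most in GC-treated 2, and the bottom panels peak in GC-treated 3 in every complex.

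The groups did not overlap for 22 of the 78 nuclear subunits (28.2%), all with GC-treated above, where 6.40% of all genes had GC-treated above and 6.40% below. By complex they were 13 of 37 in complex I, 2 of 4 in complex II, 2 of 8 in complex III, 1 of 14 in complex IV and 4 of 15 in complex V. The members of a complex shared libraries and were correlated, so these counts are not counts of independent genes. Without GC-treated 3, 22 of the 78 did not overlap, with GC-treated above, where 9.64% of all genes did so. That count could not fall, because leaving out a library never makes separate groups overlap. It could hardly rise either, because GC-treated 3 was the highest library for 74 of the 78. It is therefore no check on the result. The median log2 fold change without GC-treated 3 was 0.04, and 55 of the 78 were positive.

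In complex I all 37 nuclear subunits had positive log2 fold changes, with a median of 0.16 and a range of 0.01 to 0.30. The 3 with the smallest p were accessory subunits. Ndufb7, on the membrane arm, was at 11160, 13060 and 15120 in GC-treated and at 11010, 10230 and 10730 in vehicle-treated libraries, a log2 fold change of 0.29 ± 0.11 (SE; limma adjusted p = 0.62). For Ndufa12, an accessory subunit of the matrix arm, the levels were 7727, 7686 and 10230 in GC-treated and 7070, 6747 and 6875 in vehicle-treated libraries (0.30 ± 0.12; adjusted p = 0.62). Ndufb8, of the membrane arm, was at 5191, 5616 and 6667 in GC-treated and at 4983, 4852 and 4563 in vehicle-treated libraries (0.27 ± 0.11; adjusted p = 0.62). All 3 GC-treated libraries lay above all vehicle-treated libraries for each of these genes, and GC-treated 3 was the highest.

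Within complex I the median log2 fold change was 0.20 for the 11 Ndufb subunits, 0.16 for the 13 Ndufa subunits, 0.16 for the 3 Ndufv subunits, 0.12 for the 2 Ndufc subunits and 0.08 for the 8 Ndufs subunits. The Ndufv and Ndufs groups hold the core subunits that carry the flavin and the iron-sulfur clusters, and the other groups are accessory. Of the 13 genes whose groups did not overlap, 6 were Ndufb, 5 Ndufa and 2 Ndufv, and no Ndufs or Ndufc gene was among them. Among them Ndufv1, which binds the flavin that accepts electrons from NADH, was at 12260, 12660 and 14860 in GC-treated and at 11030, 11410 and 11840 in vehicle-treated libraries (0.21 ± 0.09; limma adjusted p = 0.62). This gene was chosen after its values were seen. Ndufb1, a small accessory subunit, had overlapping groups (0.12 ± 0.13; adjusted p = 0.735).

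Complex II oxidises succinate and has no mitochondrial gene. Sdhb, its iron-sulfur subunit, was at 27000, 30660 and 34210 in GC-treated and at 25710, 24620 and 26950 in vehicle-treated libraries, with a log2 fold change of 0.24 ± 0.10 (SE; limma adjusted p = 0.62). The groups did not overlap, though GC-treated 1 was only just above vehicle-treated 3. Sdha, the flavoprotein with the succinate site, was at 41870, 41900 and 42710 in GC-treated and at 41230, 43750 and 43380 in vehicle-treated libraries. Its log2 fold change was -0.02 ± 0.07 (adjusted p = 0.929), and it was the only subunit of complex II with a negative value. The membrane anchors Sdhc and Sdhd had log2 fold changes of 0.18 and 0.16.

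The 8 nuclear subunits of complex III that carry the Uqcr symbol had log2 fold changes of 0.06 to 0.23, with a median of 0.15. Uqcrc1, a core protein and the most abundant of them by normalized count, was at 41040, 44320 and 50910 in GC-treated and at 39730, 40390 and 40970 in vehicle-treated libraries, a difference of 0.16 ± 0.09 on the log2 scale (SE; limma adjusted p = 0.62). The GC-treated libraries lay above the vehicle-treated libraries, GC-treated 1 by less than the range of the vehicle-treated libraries.

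Complex IV had the lowest median among nuclear subunits, at 0.09 over 14 tested genes, and 13 of the 14 were positive. The ubiquitous forms were abundant. Cox6a1, an accessory subunit and the most abundant by normalized count, was at 18560, 19120 and 23230 in GC-treated and at 19650, 17750 and 18030 in vehicle-treated libraries (log2 fold change 0.13 ± 0.10, SE; limma adjusted p = 0.675). Cox4i1, which binds the nucleotides that regulate the enzyme, was at 17850, 17150 and 20550 in GC-treated and at 17390, 17220 and 16660 in vehicle-treated libraries (0.11 ± 0.09; adjusted p = 0.681). The groups of both genes overlapped. GC-treated 3 lay above all vehicle-treated libraries for both, and GC-treated 1 for Cox4i1 as well. Ndufa4, counted here with complex IV, where the protein is found, had a log2 fold change of 0.09 ± 0.10 (adjusted p = 0.739).

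Tissue-specific forms of complex IV were barely present. Per length Cox4i1 stood at 339 ± 26 RPKM and its lung form Cox4i2 at 0.0911 ± 0.0478 (SD, n = 6). For the next pair Cox6a1 stood at 507 ± 50.1 and its heart and muscle form Cox6a2 at 0.740 ± 0.117. Cox7a2 stood at 173 ± 15.3 and its heart and muscle form Cox7a1 at 0.866 ± 0.168, while Cox8a stood at 447 ± 48.1 and the muscle form Cox8b at 0.0136 ± 0.0154. Cox6b1 stood at 342 ± 28.2 and the testis form Cox6b2 at 0.480 ± 0.174. The order of the forms was thus the same in each of the 5 pairs. Cox4i2 and Cox8b were too low to be tested, and Cox8b was at 0 in 3 libraries, GC-treated 3 among them, the others being vehicle-treated 1 and 3. Cox6b2 was 1 of the 2 tested nuclear subunits with a negative log2 fold change, at 25.97, 16.87 and 8.272 normalized counts in GC-treated and 18.54, 27.03 and 18.78 in vehicle-treated libraries, where its SE of 0.67 exceeded the change of -0.43.

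In complex V all 15 nuclear subunits had positive log2 fold changes, from 0.01 to 0.28, with a median of 0.12. Atp5b, the catalytic β subunit and the most abundant nuclear member by normalized count, was at 178000, 169800 and 198900 in GC-treated and at 166200, 162700 and 176900 in vehicle-treated libraries (log2 fold change 0.11 ± 0.09, SE; limma adjusted p = 0.675). Atp5g3, which encodes the c subunit of the rotating ring, was at 29130, 26090 and 33720 in GC-treated and at 28190, 28370 and 28800 in vehicle-treated libraries (0.05 ± 0.10; adjusted p = 0.856). The groups of both genes overlapped, and GC-treated 2 lay below all vehicle-treated libraries for Atp5g3. Per length Atp5b, at 1360 ± 94.0 RPKM (SD, n = 6), stood at a level like those of mt-Atp6 and mt-Co1, with a smaller spread.

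**Figure D4:**
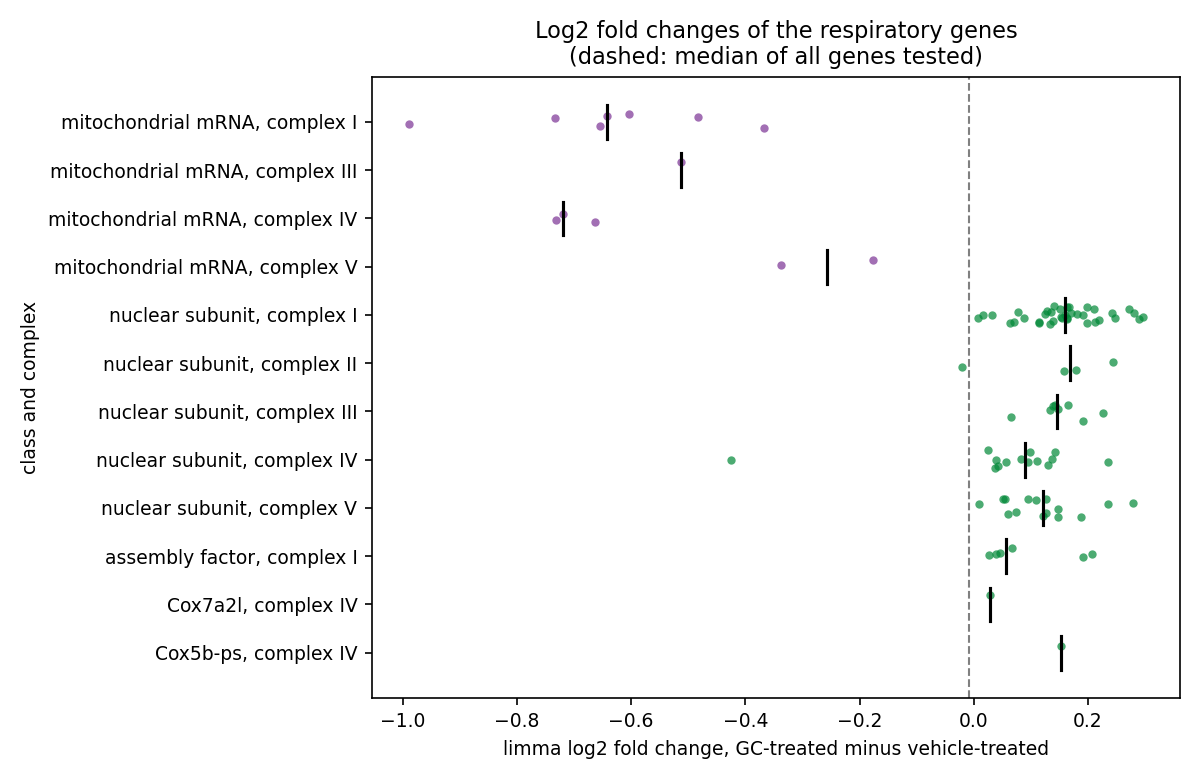
Limma log2 fold changes, GC-treated minus vehicle-treated, of the 99 tested members by class and complex (points), with the median of each row as a black bar and the median of all genes tested as a dashed line. All 13 mitochondrial mRNAs lie to the left of the dashed line, and 76 of the 78 nuclear subunits have positive values.

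Assembly factors help to build complexes without staying in them. The 6 factors of complex I named Ndufaf had log2 fold changes of 0.03 to 0.21, with a median of 0.06, and none reached an unadjusted p under 0.05. Ndufaf7, a methyltransferase, was at 3330, 3183 and 3124 in GC-treated and at 3033, 3191 and 3114 in vehicle-treated libraries (0.05 ± 0.09, SE; limma adjusted p = 0.862). Cox7a2l, the associated factor counted with complex IV, was at 3838, 4323 and 4729 in GC-treated and at 4092, 4255 and 4246 in vehicle-treated libraries. Its log2 fold change was 0.03 ± 0.10 (SE, limma adjusted p = 0.931). The groups overlapped for both genes. Cox5b-ps was set apart as a pseudogene by its symbol, although Gencode M39 lists it as protein coding. It shares sequence with Cox5b and had a log2 fold change of 0.15 ± 0.14 (adjusted p = 0.720), and reads of the 2 genes may be exchanged.

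Genes of the pathway outside these symbols were described from lists. Cyc1, the cytochrome subunit of complex III, is not a member by symbol and did not enter the counts or the ratio of that complex. It and Cycs, the cytochrome that carries electrons to complex IV, had positive log2 fold changes (0.18 and 0.17) and overlapping groups. Of 11 further complex I assembly factors tested, 7 were positive and 4 negative, with a median of 0.06. Timmdc1, a membrane-arm assembly factor, was at 495.2, 314.6 and 364.9 in GC-treated and at 515.9, 524.3 and 523.7 in vehicle-treated libraries, so that GC-treated lay below vehicle-treated throughout (-0.44 ± 0.20, SE; limma adjusted p = 0.62). For complex II assembly 3 of 4 factors were positive, for complex III 5 of 6, for complex IV 18 of 21 and for complex V 5 of 5, with medians of 0.19, 0.07, 0.14 and 0.13. Among these Uqcc2, needed for the synthesis of cytochrome b, was at 3274, 3503 and 4542 in GC-treated and at 3100, 2896 and 3029 in vehicle-treated libraries (0.31 ± 0.13; adjusted p = 0.62). Tmem242, a factor of the ATP synthase ring, was at 1646, 1672 and 1831 in GC-treated and at 1410, 1538 and 1319 in vehicle-treated libraries (0.27 ± 0.12; adjusted p = 0.62). For complex IV the gene with the smallest p was Taco1, an activator of the translation of mt-Co1, at 798.3, 484.2 and 577.2 in GC-treated and 884.5, 931.8 and 704.2 in vehicle-treated libraries (-0.46 ± 0.21; adjusted p = 0.62). GC-treated 2 and 3 lay below all vehicle-treated libraries for Taco1 and GC-treated 1 did not. For complex II it was Sdhaf1, at 154.1, 175.6 and 215.1 in GC-treated and 114.5, 144.9 and 113.7 in vehicle-treated libraries (0.54 ± 0.26; adjusted p = 0.62), with GC-treated above throughout. The most abundant factors of these lists were Foxred1, Sdhaf2, Uqcc1, Coa5 and Atpaf2, of complexes I to V in that order, with log2 fold changes of 0.15, -0.02, 0.05, -0.11 and 0.07, and for Coa5 all GC-treated libraries lay below vehicle-treated. No gene of these 6 lists passed the test over all genes.

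Factors that keep, copy and express mitochondrial DNA were spread about 0. Of 26 tested, 14 were positive and 12 negative, the median was 0.06, and 2 had an unadjusted p under 0.05, both higher, where 2.12% of all genes were higher and 5.07% lower. Fastk, a mitochondrial RNA-binding protein needed for the mRNA of mt-Nd6, was at 5375, 5610 and 5960 in GC-treated and at 5015, 4640 and 4860 in vehicle-treated libraries (0.22 ± 0.09, SE; limma adjusted p = 0.62). Lrpprc, which stabilises mitochondrial mRNAs, was at 9552, 7679 and 7202 in GC-treated and at 8413, 9327 and 10270 in vehicle-treated libraries (-0.20 ± 0.12; adjusted p = 0.63). GC-treated 2 and 3 lay below all vehicle-treated libraries for Lrpprc and GC-treated 1 did not. Among 10 nuclear regulators of respiratory genes 2 were positive and 8 negative, with a median of -0.07. Nrf1 itself was at 11120, 11530 and 11230 in GC-treated and at 11200, 11510 and 11370 in vehicle-treated libraries, a difference of -0.01 ± 0.07. The tricarboxylic acid cycle, which feeds complexes I and II, had 10 of 13 genes positive and a median of 0.04, and coenzyme Q synthesis had 9 of 11 and a median of 0.08. The genes with the smallest p in these 3 lists were Myc (0.20), Suclg2 (0.18) and Coq8a (0.30), with groups that overlapped for Myc and Coq8a and GC-treated above for Suclg2. The most abundant of the last 2 lists, Mdh2 and Coq5, had log2 fold changes of 0.18 and 0.09.

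Markers of other cell types differed between the libraries as well. The 8 neutrophil markers analysed, of 10 listed, took 0.00261%, 0.0182% and 0.0123% of the reads of GC-treated 1, 2 and 3, against 0.000808%, 0.000512% and 0.00573% in vehicle-treated 1, 2 and 3. The libraries with the most neutrophil reads, GC-treated 2 and 3 and vehicle-treated 3, were those with the smallest shares of mitochondrial mRNA. Of these markers Ltf, Mmp8 and Retnlg were at 0 in some libraries. The listed markers Ngp and S100a9 had no values, and these shares count reads of marker genes only, not all RNA of neutrophils. Of the 8 markers, 7 had a positive log2 fold change, with a median of 2.94. At an unadjusted limma p under 0.05, 5 of the 8 were higher, where 2.12% of all genes were. The groups overlapped for each marker, and the lowest limma adjusted p was 0.62. The 5 CD4 T cell markers took 0.00634% to 0.00661% of reads in GC-treated and 0.00683% to 0.00864% in vehicle-treated libraries. All 5 had negative log2 fold changes, but only for 1 of them, Cd40lg, did the groups not overlap. For Ctla4, the most abundant of the 5, they overlapped, at 3394, 3415 and 3311 in GC-treated and 4370, 4524 and 3267 in vehicle-treated libraries. The 6 erythroid markers analysed, of 8 listed, took 0.000397% to 0.000518% in GC-treated and 0.000603% to 0.00115% in vehicle-treated libraries, with Car1 at 0 in some libraries. For the summed shares of the CD4 T cell and erythroid lists the groups did not overlap, with GC-treated below. The part of these markers in the mitochondrial levels was not tested.

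The size of the contrast between the 2 genomes changed with the library left out. Without GC-treated 1 the median log2 fold change of the mitochondrial mRNAs was -0.94, and 11 of the 13 were lower at an unadjusted p under 0.05 (12.2% of all genes were). For 10 of the 13 the groups then did not overlap, with GC-treated below (19.7% of all genes). That count follows from the places of GC-treated 2 and 3 given above and is no check on the result. Without GC-treated 2 the median was -0.33, where 0 of the 13 were lower at an unadjusted p under 0.05 (3.32% of all genes). Without vehicle-treated 2 it was -0.42, again with 0 of the 13 (1.67% of all genes). The count was 1 of the 13 without GC-treated 3 (2.66% of all genes), 0 without vehicle-treated 1 (1.98%) and 9 without vehicle-treated 3 (4.24%). The nuclear subunits had a median of 0.19 without GC-treated 1, where 17 of the 78 were higher at an unadjusted p under 0.05 (8.34% of all genes). Without GC-treated 3 that median was 0.04 and 0 of the 78 were higher (1.25% of all genes). The count was also 0 without vehicle-treated 1 (0.953% of all genes) or vehicle-treated 2 (0.678%), and 1 without vehicle-treated 3 (2.31%). No member passed the adjusted threshold with any library left out.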

How the data were processed

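Bulk RNA-Seq of 6 libraries, 3 GC-treated and 3 vehicle-treated, was analysed. The sample labels read GC and NoGC, and that the latter were given vehicle is taken from the paper's methods. The authors prepared cDNA with the SMART v4 kit and libraries with Nextera XT, aligned reads with STAR to GRCm39 (Gencode M26), counted them with summarizeOverlaps and used DESeq2 (versions not stated). Their deposited table holds a normalized signal for 14051 symbols, the reads of a library over its size factor. Each library's values were multiples of 1 step (100% within 0.001 of a read), so reads could be recovered. For GC-treated 2 that step is close to 1, so an automatic check of the column was not possible.

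The 11649 genes that reached 10 in 3 or more libraries entered limma 3.58.1 (R 4.3.3) as log2(value + 1), with the trend option, Benjamini-Hochberg adjustment over all of them and a threshold of 0.05. Alternatives were TMM and nuclear-read scaling, other filters and pseudocounts, limma-voom, edgeR 4.0.16 and DESeq2 1.42.0 on recovered reads, a replicate block, and leaving out each library. The tests were tested on simulated data. Members and lists were chosen with earlier results of these data known. Named with values were all mitochondrial mRNAs, the most abundant member of each class, up to 3 members in each direction with the smallest unadjusted p under 0.05, tissue-specific forms with their partners, and of each other pathway list the gene with the smallest p and the most abundant. A gene picked by this rule is not reported here. Coordinates and lengths come from Gencode M39 on GRCm39, where 98 of the 101 members were found. Of the 88 nuclear members, 40 have an exon that overlaps a gene on the other strand, which makes their counts uncertain. Nuclear copies of the mitochondrial genome were searched with blastn at 98% identity and 200 bases or more.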

Additional observations from a re-analysis of the deposited data

How the results depend on the processing

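The number of members called stayed at 0 in all alternatives. Over all genes 2 were called with DESeq2 and 1 with limma without a trend (an alternative chosen after seeing the data), against 0 with the reported test, and 0 to 45 with each library left out, the 45 without GC-treated 1. The median log2 fold change of the mitochondrial mRNAs was -0.94 without GC-treated 1 and -0.33 without GC-treated 2, and that of the nuclear subunits 0.04 without GC-treated 3 and 0.19 without GC-treated 1. With edgeR the 2 medians were -0.58 and 0.15, and with reads scaled to nuclear reads -0.65 and 0.13. Over the 5 mitochondrial mRNAs outside the nuclear copy, also chosen after seeing the data, the median was -0.51. Of 33 named members 24 kept their direction in each of the 17 alternatives that could be fitted for them, since the filter at 50 removed Cox6a2, Cox6b2 and Cox7a1. The others changed sign only when a library was left out, over ranges of -0.44 to 0.0828 for mt-Atp8, -0.0431 to 0.11 for Cox7a2l, -0.14 to 0.16 for Cox6a2, -0.00593 to 0.14 for Cox6b1, -0.15 to 0.17 for Cox7a1, -0.0792 to 0.16 for Cox8a, -0.0456 to 0.14 for Atp5g3, -0.00285 to 0.16 for Ndufa4 and -0.00464 to 0.19 for Ndufb1. The lowest adjusted p of a named member in any alternative was 0.0653.

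The deviations of same-numbered libraries of the 2 groups had correlations of 0.06, -0.14 and 0.13. Differently numbered libraries were not compared and the labels give no pairing, so these values cannot show if the libraries were paired. With the replicate number as a block, limma called 0 genes and the medians were -0.64 and 0.14.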
